A study of Mus musculus with 6 samples.

Results

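Hepatic bile acid and anion transporters are the 10 genes Slc10a1, Slco1a1, Slco1a4, Slco1b2, Slco2b1, Abcb11, Abcc2, Abcc3, Abcc4 and Abcc6, taken as all probe sets that the array's platform annotation assigns to one of these symbols. They are measured by 18 of the 45101 probe sets and are 10 of the 18193 genes with a usable symbol. Liver RNA was compared between male NZO mice and male BKS (C57BL/KS) mice, 3 arrays per strain and 1 array per sample. The BKS arrays are titled wt (wild type), and the NZO titles state no genotype. The mice of both strains were 18 weeks old, had free access to chow and received no treatment. NZO mice become obese and diabetic, and BKS mice are the control strain. Both are whole inbred strains, so the comparison is between genetic backgrounds and not of a single allele. The values are log2 expression levels made by RMA, and a log2 fold change is NZO minus BKS throughout.

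Hepatocytes take bile acids and other organic anions up from sinusoidal blood and pump them across the canalicular membrane into bile, and this flow drives bile secretion. Slc10a1 (NTCP) takes up conjugated bile acids together with sodium, and the Slco (OATP) proteins carry bile acids, bilirubin, steroid and thyroid hormone conjugates and drugs without sodium. Abcb11 (BSEP) is the canalicular bile salt pump and Abcc2 (MRP2) the canalicular pump for bilirubin and glutathione conjugates. Abcc3, Abcc4 and Abcc6 (MRP3, MRP4 and MRP6) lie on the basolateral side and export towards blood. In liver, the bile acid receptor FXR (Nr1h4) is known to switch on Abcb11, and Abcc3 and Abcc4 are known to be induced in cholestasis.

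One NZO array stood apart from the other 5, and this touches nearly every transporter. Averaged over 8 measured hepatocyte markers, its level was 13.61 (NZO replicate 1), whereas the other 5 arrays lay between 14.57 and 14.61, and each of the 8 markers had its lowest value there. It was also the lowest of the 3 NZO arrays for all 10 transporters, and BKS replicate 1 was the lowest of the 3 BKS arrays for 6 of them. In bulk tissue, fewer hepatocytes and less of these RNAs per hepatocyte cannot be told apart. NZO replicate 1 was also the lowest NZO array for markers of some other cells. Its summed level of Kupffer cell and macrophage markers was 11.12. The other NZO arrays had 12.04 and 11.80, and BKS 11.20 to 12.18. Its stellate cell and fibroblast sum was 10.80, against 11.53 and 11.32 in NZO and 10.72 to 11.82 in BKS. Its red cell sum was 10.03, against 11.00 and 11.02 in NZO and 9.69 to 10.51 in BKS. NZO replicate 1 and BKS replicate 1, the arrays titled number 1 in their strains, also had the lowest spiked hybridization controls, at 8.17 and 9.29 against 10.17 to 11.52 on the other 4. The part of this array difference in the low marker and transporter values of NZO replicate 1 was not tested. The difference between the 3' and 5' probe sets of beta-actin, which grows as RNA is truncated, was 1.29 to 1.39 in NZO and 1.72 to 2.33 in BKS, so RNA quality and strain cannot be told apart. The 18S ribosomal signal was also uneven, at 4.64 to 5.52 in NZO and at 4.51, 10.46 and 7.91 in BKS, and the high values belong to BKS replicates 2 and 3, the BKS arrays left when the number 1 arrays are dropped. Results are therefore also given without NZO replicate 1, with the number 1 arrays as a block, and for the 2 against 2 arrays left without both number 1 arrays. The liver label held: the hepatocyte markers Alb, Apoa2 and Ttr had means of 14.63, 14.67 and 14.30 in NZO and 14.83, 14.86 and 14.67 in BKS. Cftr, a marker of bile duct cells, lay near the bottom of the scale (mean 3.61), and no cholangiocyte marker passed the test, of 8 measured. The summed level of the cholangiocyte markers was 10.19 in NZO replicate 1 and 9.34 to 9.78 on the other arrays, and that of 7 lymphocyte markers 10.13 and 8.57 to 8.82. A single _x_at probe set carries each of these high sums. Without Epcam the cholangiocyte sum of NZO replicate 1 was 8.17, the lowest array (the others 8.88 to 9.52), and without Cd8a its lymphocyte sum was 8.53 (the others 8.13 to 8.52). For 8 markers of liver endothelium it was 10.61 to 11.37 in NZO and 10.15 to 10.68 in BKS; none passed over the 6 arrays and 3 were higher with the block.

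Abcc4 was the only transporter past the test over the 6 arrays, and it rose in NZO. A gene passed where its adjusted p in limma (Benjamini-Hochberg over all genes) was below 0.05. None fell, and the other 9 did not pass. Of all 18193 genes 0.742% passed, with 0.324% higher and 0.418% lower in NZO. Of the 10 transporters, 8 had a log2 fold change below 0, and the median of the 10 was -0.50, against -0.03 for all genes. Among the 9622 genes with a mean of at least 6, which include 9 of the transporters, the median was -0.20. Without NZO replicate 1, 7 transporters were below 0 and 3 above. Abcc4 was again the only member past the test, where 1.42% of all genes passed (0.824% higher and 0.594% lower). The 3 NZO values lay all above or all below the 3 BKS values for 4 members, Abcc4 above and Slco1a1, Slco1b2 and Abcb11 below. Of all genes 17% were separated in this way (6.11% above and 10.9% below). With the array block, 6.55% of all genes passed (1.51% higher and 5.04% lower), and of the members Abcc4 was higher and Abcb11 and Abcc6 were lower. Among the 2 against 2 arrays 5.01% of all genes passed (2% higher and 3.02% lower), and of the members Abcc3 and Abcc4 were higher. Relative to the hepatocyte markers of the same array, 1.08% of all genes passed (0.764% higher and 0.319% lower), and Abcc4 was the only member. After repeated quantile normalization 2.31% passed (1.06% higher and 1.26% lower), Abcc4 higher and Abcb11 lower among them, and with arrays weighted by quality 7.13% (2.19% higher and 4.94% lower), Abcc4 higher and Slco1a1 lower among them.

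**Figure D1:**
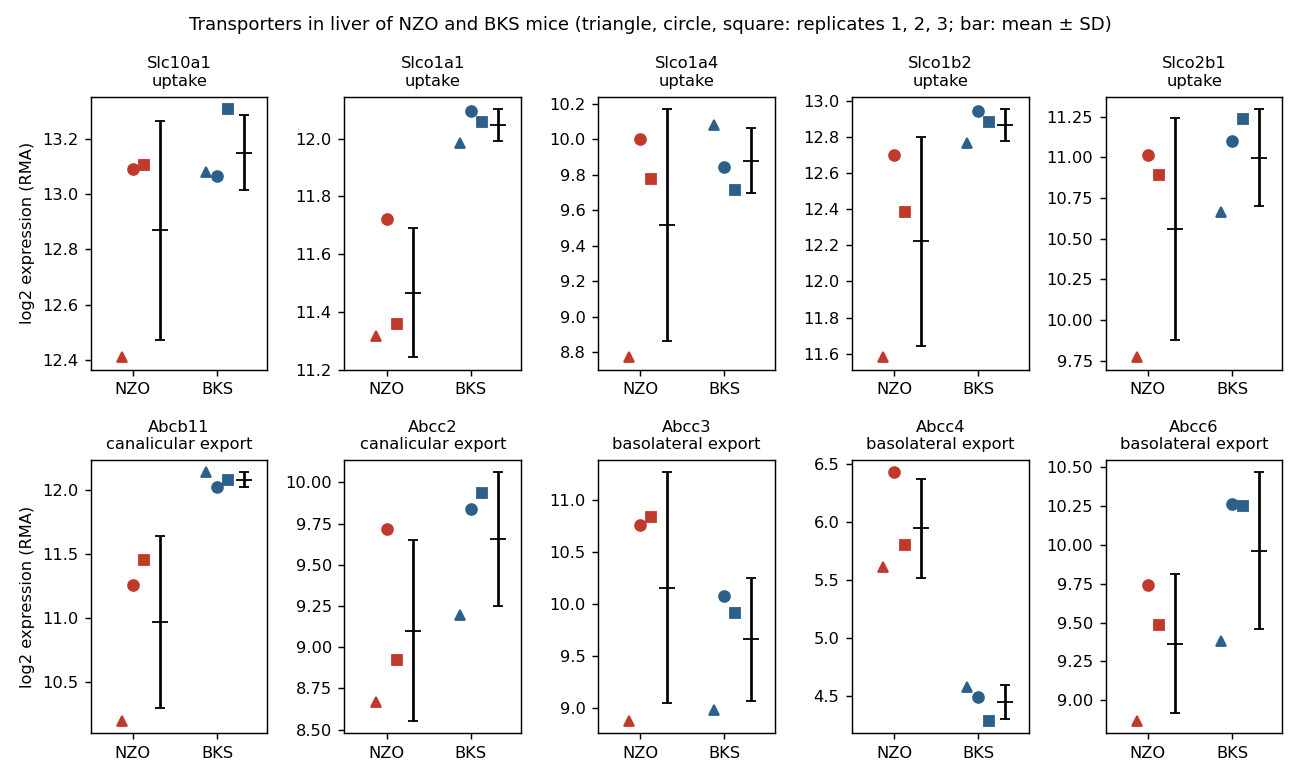
Log2 expression (RMA) of each transporter, represented by its brightest probe set, on the 3 NZO arrays (left, red) and the 3 BKS arrays (right, blue). Triangles, circles and squares are replicates 1, 2 and 3, bars are mean ± SD (n = 3), and each panel has its own axis, which does not start at 0. Only for Abcc4 do all NZO values (5.61 to 6.43) lie above all BKS values (4.29 to 4.58), and NZO replicate 1 is the lowest of the 6 arrays for 9 of the 10 transporters.

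The 5 uptake transporters all had lower means in NZO, and none passed the test. Slco1a1 (OATP1A1), which in mouse liver is known to be higher in males, had 11.32, 11.72 and 11.36 in NZO and 11.99, 12.10 and 12.06 in BKS. The NZO arrays all lay below the BKS arrays. Its log2 fold change was -0.58 (SE 0.17, 95% confidence interval -0.97 to -0.19, adjusted p = 0.224). Leaving NZO replicate 1 out gave -0.51 (adjusted p = 0.266), and arrays weighted by quality gave an adjusted p of 0.0319, at which Slco1a1 passed. Repeated quantile normalization and cyclic loess gave smaller differences, -0.29 (adjusted p = 0.647) and -0.24 (adjusted p = 0.730). Slco1b2, the mouse counterpart of the human liver OATP1B carriers and a bilirubin and bile acid carrier, had 11.58, 12.70 and 12.39 in NZO and 12.77, 12.94 and 12.88 in BKS. The strains again did not overlap, although NZO replicate 2 came within 0.07 of the lowest BKS array. NZO stood at -0.64 relative to BKS on the log2 scale (SE 0.28, adjusted p = 0.451), which became -0.32 (adjusted p = 0.493) when NZO replicate 1 was left out.

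Slc10a1, the sodium-dependent bile acid carrier, had 12.41, 13.09 and 13.11 in NZO and 13.08, 13.07 and 13.31 in BKS. NZO replicates 2 and 3 lay within the BKS range and replicate 1 lay below it. For Slc10a1 the log2 fold change was -0.28 (95% confidence interval -0.81 to 0.24, adjusted p = 0.709), and -0.05 without NZO replicate 1. Slco1a4 (OATP1A4), a carrier that also takes up digoxin in rodents, had 8.77, 10 and 9.78 in NZO and 10.08, 9.85 and 9.72 in BKS. Again only NZO replicate 1 fell outside the BKS range. Its log2 fold change was -0.36 (95% confidence interval -1.11 to 0.39, adjusted p = 0.740), and 0.01 without that array. Slco2b1 (OATP2B1), a carrier of steroid sulfates, had 9.77, 11.01 and 10.89 in NZO and 10.66, 11.10 and 11.24 in BKS. Both number 1 arrays were the lowest of their strain, and NZO replicates 2 and 3 lay within the BKS range. For Slco2b1 it was -0.44 (95% confidence interval -1.25 to 0.37, adjusted p = 0.705), and -0.05 without NZO replicate 1. The direction of Slc10a1 depended on the scaling, with 0.01 after repeated quantile normalization, 0.09 after cyclic loess and 0.05 relative to the hepatocyte markers. The other 4 stayed below 0 under all of these. Relative to the hepatocyte markers the median of all genes was 0.30.

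The bases before the annotated starts of Slco1a1 and Slco1b2 are shown because these were the uptake genes whose strains did not overlap. RefSeq sequences in build GRCm38.p6 were at hand for 8 of the 10 genes (12 starts), and Abcc3 and Abcc6 have no entry. The 250 bases before each start were searched on both strands for 5 motifs of regulators of these genes. These were the nuclear receptor half-site AGGTCA (found in 14.0% of all 32851 such windows), the HNF1 half-site GTTAAT (6.43%), the STAT5 element TTCNNNGAA (7.02%), the forkhead motif TGTTTAC (3.17%) and the antioxidant response element core TGACNNNGC (10.2%). Matches are in capitals, in either orientation, and no 2 of them overlapped. They describe letters only and are not shown to be bound. The Slco1a1 window is chr6:141946963-141947212 (minus strand) with the nuclear receptor half-site at 2 places, and the Slco1b2 window is chr6:141629268-141629517 (plus strand) with a STAT5 element, a nuclear receptor half-site and an HNF1 half-site, in this order.
Slco1a1: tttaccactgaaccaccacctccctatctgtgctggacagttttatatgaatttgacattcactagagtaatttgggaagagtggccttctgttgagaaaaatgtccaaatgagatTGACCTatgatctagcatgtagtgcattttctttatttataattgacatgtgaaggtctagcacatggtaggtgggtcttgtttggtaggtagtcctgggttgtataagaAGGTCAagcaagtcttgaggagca
Slco1b2: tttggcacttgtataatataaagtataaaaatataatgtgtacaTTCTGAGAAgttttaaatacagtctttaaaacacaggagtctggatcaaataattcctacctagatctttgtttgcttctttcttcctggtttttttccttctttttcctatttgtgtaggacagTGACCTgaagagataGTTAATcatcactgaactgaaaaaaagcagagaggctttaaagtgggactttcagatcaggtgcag

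Several uptake genes have more than 1 probe set, and these did not all point the same way. Probe sets were compared in a fit over all 45037 probe sets that are not controls, in which 0.424% passed (0.191% higher and 0.233% lower) and none of the 18 did. The strains did not overlap for 5 of the 18, and for 15.3% of all probe sets. The clearest disagreement was in Slco1b2, which has 5 probe sets. Its probe set 1427826_a_at, assigned to the same gene, had 9.17, 10.03 and 8.52 in NZO and 6.63, 7.28 and 8.49 in BKS. All NZO arrays lay above all BKS arrays, by 0.03 at the closest, while the brightest probe set (1449394_at) had all NZO arrays below. For 1427826_a_at the log2 fold change was 1.77 (SE 0.54, 95% confidence interval 0.48 to 3.07, adjusted p = 0.325), against -0.64 (95% confidence interval -1.31 to 0.02) for 1449394_at. A further probe set of Slco1b2, 1452494_s_at, was at 0.19 (adjusted p = 0.875), and the dim 1427825_at and 1452569_at were at -0.02 and 0.06. The probe set 1427826_a_at was at 2.54 between the number 1 arrays and at 1.39 (adjusted p = 0.252) among the 2 against 2 arrays. The mean over all 5 probe sets gave Slco1b2 a log2 fold change of 0.27, so its direction depended on the probe set.

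The second probe set of Slc10a1 (1450261_a_at) had 11.54, 12.65 and 12.59 in NZO and 11.77, 12.01 and 12.35 in BKS. Its log2 fold change was 0.21 (adjusted p = 0.893), opposite in sign to the -0.28 of the brighter one. The second probe set of Slco1a1 (1449844_at) had 10.35, 11.06 and 10.16 in NZO and 10.17, 10.85 and 11.14 in BKS, and these overlap. Its log2 fold change was -0.20 (95% confidence interval -0.96 to 0.57, adjusted p = 0.905), so the separation of the strains in Slco1a1 was seen in 1 of its 2 probe sets. The second probe set of Slco2b1 (1454777_at) was at -0.19 and the dim 1458171_at at -0.02. The brightest Slco2b1 probe set, 1 of Slco1b2 and the single one of Abcc2 end in _s_at and may read sequence shared with other genes.

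**Figure D2:**
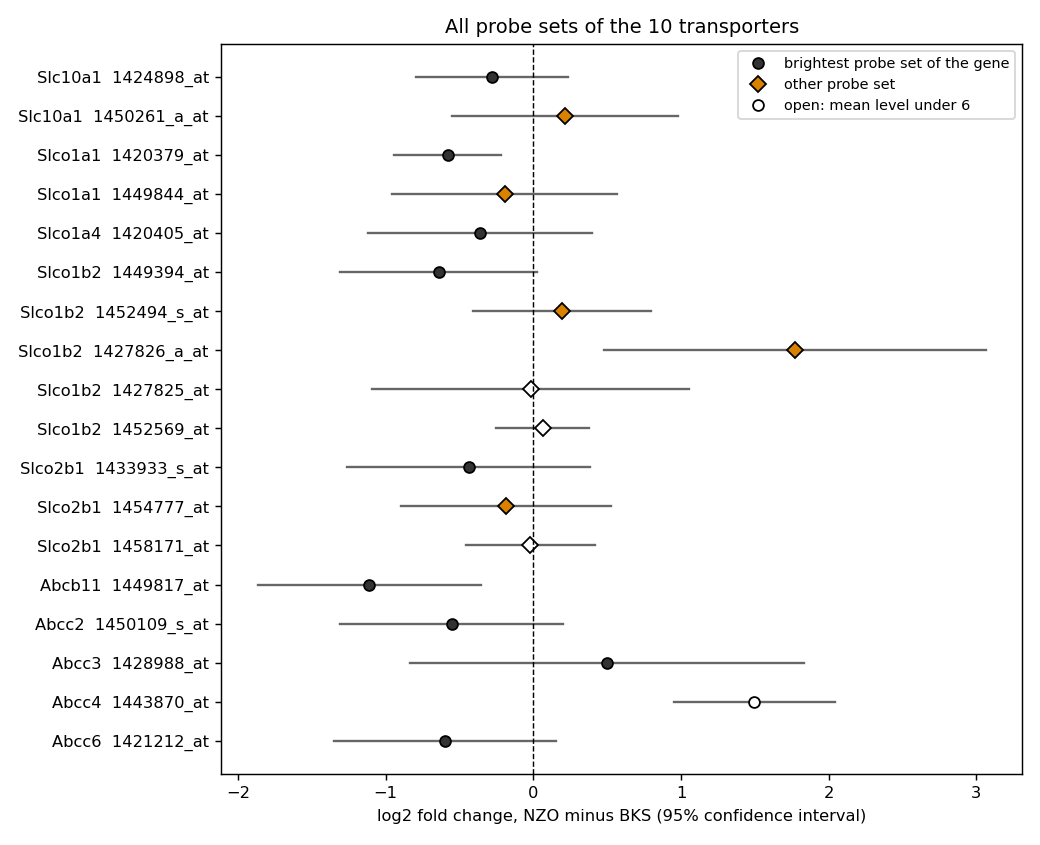
Log2 fold change (NZO minus BKS) with its 95% confidence interval for all 18 probe sets of the 10 transporters, from the fit over all probe sets. Dark circles are the brightest probe set of a gene, orange diamonds its other probe sets, and open symbols have a mean level under 6. The Slco1b2 probe set 1427826_a_at stands at 1.77, opposite to the brightest one at -0.64, and Abcb11 (-1.11) and Abcc4 (1.50) lie at the ends of the genes with 1 probe set.

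Of the canalicular pumps, Abcb11 had the most negative log2 fold change of the 10 genes over the 6 arrays, without passing the test. Abcb11 had 10.20, 11.25 and 11.45 in NZO and 12.14, 12.02 and 12.08 in BKS. All NZO arrays lay below all BKS arrays, replicate 1 by far the most. The mean was 10.97 ± 0.67 in NZO and 12.08 ± 0.06 in BKS (SD, n = 3 each). The strain difference was -1.11 on the log2 scale (SE 0.32, 95% confidence interval -1.86 to -0.36, adjusted p = 0.226), or 2.16-fold lower in NZO. With the array block it passed (adjusted p = 0.0338), as it did after repeated quantile normalization (-0.82, adjusted p = 0.0351). It did not pass after cyclic loess (-0.78, adjusted p = 0.0542) or with arrays weighted by quality (-0.75, adjusted p = 0.0505). Nor did it pass with the block in the fit over all probe sets (adjusted p = 0.0668). The block assumes the same shift in both number 1 arrays. Measured from its strain mean, Abcb11 was at -0.77 in NZO replicate 1 and at 0.06 in BKS replicate 1. Its difference was -0.73 (adjusted p = 0.0926) once NZO replicate 1 was left out, -1.94 between the number 1 arrays, and -0.70 (adjusted p = 0.0548) in the remaining 2 against 2 arrays. Relative to the hepatocyte markers of the same array it was at -0.78 (adjusted p = 0.405), where the median of all genes was 0.30.

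Abcc2 had 8.67, 9.72 and 8.92 in NZO and 9.19, 9.84 and 9.94 in BKS. The strains overlap, with the number 1 array lowest in both. Abcc2 had a log2 fold change of -0.55 (95% confidence interval -1.30 to 0.19, adjusted p = 0.578). The number 1 arrays alone gave -0.52 and the 2 against 2 arrays -0.57 (adjusted p = 0.259). Dropping NZO replicate 1 gave -0.34 (adjusted p = 0.730) and dropping NZO replicate 2 gave -0.86, while repeated quantile normalization and cyclic loess gave -0.32 and -0.30. The window before the Abcb11 start is shown because Abcb11 is the canalicular gene whose strains did not overlap. It is chr2:69342617-69342866 (minus strand) and holds the nuclear receptor half-site once, 51 to 56 bases before the start, and none of the other 4 motifs.
Abcb11: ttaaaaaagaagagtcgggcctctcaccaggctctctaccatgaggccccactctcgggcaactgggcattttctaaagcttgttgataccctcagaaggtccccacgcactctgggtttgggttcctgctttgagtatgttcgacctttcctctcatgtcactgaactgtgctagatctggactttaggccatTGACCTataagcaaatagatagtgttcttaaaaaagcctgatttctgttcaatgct

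Of the basolateral exporters, Abcc4 rose and Abcc3 and Abcc6 did not pass the test over the 6 arrays. Abcc4, which exports bile acids together with glutathione as well as cyclic nucleotides, had 5.61, 6.43 and 5.81 in NZO and 4.58, 4.49 and 4.29 in BKS. All NZO arrays lay above all BKS arrays by more than 1 on the log2 scale. The mean was 5.95 ± 0.43 in NZO and 4.45 ± 0.15 in BKS (SD, n = 3 each). Its log2 fold change was 1.50 (SE 0.24, 95% confidence interval 0.95 to 2.05, adjusted p = 0.0446), a rise of 2.82-fold, and its p ranked 129 among the 18193 genes. The BKS values lie below the array medians (5.08 to 5.22) and there is no detection call, so the size of the fold rests on a low level. Abcc4 has a single probe set. It did not pass in the fit over all probe sets (adjusted p = 0.0621), which tests more features. The summed endothelial markers were higher in NZO replicates 2 and 3 than on any BKS array, and their part in this difference was not tested.

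NZO replicate 1, the array with low hepatocyte markers, had the lowest Abcc4 value of the NZO arrays. When it was left out the log2 fold change was 1.67 (adjusted p = 0.0180), and with the array block the adjusted p was 0.00737. Relative to the hepatocyte markers Abcc4 was at 1.83 (adjusted p = 0.00459), where the median of all genes was 0.30. The number 1 arrays differed by 1.03, and the 2 against 2 arrays by 1.73 (adjusted p = 0.00716). Without NZO replicate 2 or 3 it did not pass (1.26, adjusted p = 0.0642, and 1.57, adjusted p = 0.174), nor without BKS replicate 1, 2 or 3 (adjusted p = 0.0924, 0.249 and 0.222).

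Abcc3, which exports glucuronides and bile acids back to blood, had 8.88, 10.76 and 10.84 in NZO and 8.99, 10.08 and 9.92 in BKS. Both number 1 arrays were about 1 or more below the others of their strain, and the strains overlap. For Abcc3 the log2 fold change was 0.50 (95% confidence interval -0.80 to 1.79, adjusted p = 0.806). Between the number 1 arrays the difference was -0.11, and over the 2 against 2 arrays it was 0.80 (adjusted p = 0.0338), where Abcc3 passed. With single arrays dropped it did not pass and its size varied widely, at 1.14 (adjusted p = 0.184) without NZO replicate 1, 0.20 and 0.16 without NZO replicates 2 and 3, and 0.16 without BKS replicate 1. Abcc6, known as the gene mutated in pseudoxanthoma elasticum and for ATP release from liver cells, had 8.87, 9.74 and 9.48 in NZO and 9.38, 10.26 and 10.25 in BKS. In each strain the number 1 array was the lowest. NZO replicate 1 lay below BKS replicate 1, and the other NZO arrays lay below the other BKS arrays. For Abcc6 it was -0.60 (95% confidence interval -1.34 to 0.14, adjusted p = 0.540), and it passed with the array block (adjusted p = 0.0460). With the block in the fit over all probe sets it did not pass (adjusted p = 0.0626). Repeated quantile normalization gave -0.35 (adjusted p = 0.370) and cyclic loess -0.33 (adjusted p = 0.430). The difference was -0.51 for the number 1 arrays, -0.64 (adjusted p = 0.0762) for the 2 against 2 arrays and -0.35 with NZO replicate 1 left out.

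The windows before the 2 starts of Abcc4 that the sequence table holds are shown because Abcc4 was the transporter that rose. They are chr14:118706220-118706469 and chr14:118676932-118677181, both on the minus strand. Each holds the antioxidant response element core, the motif of Nrf2 (Nfe2l2), once, and none of the other 4 motifs. The core was found in 3 of the 12 windows of these transporters, the third being that of Abcc2.
Abcc4 upstream start: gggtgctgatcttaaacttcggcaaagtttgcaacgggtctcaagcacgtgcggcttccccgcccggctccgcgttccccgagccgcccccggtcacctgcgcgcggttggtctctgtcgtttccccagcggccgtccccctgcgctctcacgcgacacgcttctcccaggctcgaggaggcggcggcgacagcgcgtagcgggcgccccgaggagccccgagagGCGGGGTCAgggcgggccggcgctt
Abcc4 downstream start: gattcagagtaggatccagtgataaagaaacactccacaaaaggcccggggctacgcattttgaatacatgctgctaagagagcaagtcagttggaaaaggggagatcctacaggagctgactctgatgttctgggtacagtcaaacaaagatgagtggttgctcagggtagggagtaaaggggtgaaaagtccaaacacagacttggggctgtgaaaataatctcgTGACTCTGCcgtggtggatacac

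Set side by side by role, the uptake genes had a median log2 fold change of -0.44 (range -0.64 to -0.28), the canalicular pumps -0.83 and the basolateral exporters 0.50 (range -0.60 to 1.50). These medians are descriptions of 5, 2 and 3 genes and were not tested. Measured from the BKS mean, the median of the uptake genes was -1.11, -0.06 and -0.11 on NZO arrays 1, 2 and 3, against -0.07 to 0.05 on the BKS arrays. That of the canalicular pumps was -1.43, -0.38 and -0.68 in NZO, against -0.20 to 0.14 in BKS. That of the basolateral exporters was -0.78, 1.10 and 1.18 in NZO, against -0.58 to 0.30 in BKS. In NZO replicates 2 and 3, where hepatocyte markers were at the level of the BKS arrays, the median uptake gene thus lay close to the BKS mean. Slco1a1 was lower there, at -0.325 and -0.688, and Slco1b2 at -0.164 and -0.479, with the other uptake genes between -0.11 and 0.12. The median of the canalicular pumps lay below the BKS mean, with Abcc2 at 0.06 in NZO replicate 2. Of the basolateral genes Abcc3 and Abcc4 lay above the BKS mean and Abcc6 below it, at -0.22 and -0.48. Without NZO replicate 1 the role medians were -0.05, -0.53 and 1.14.

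**Figure D3:**
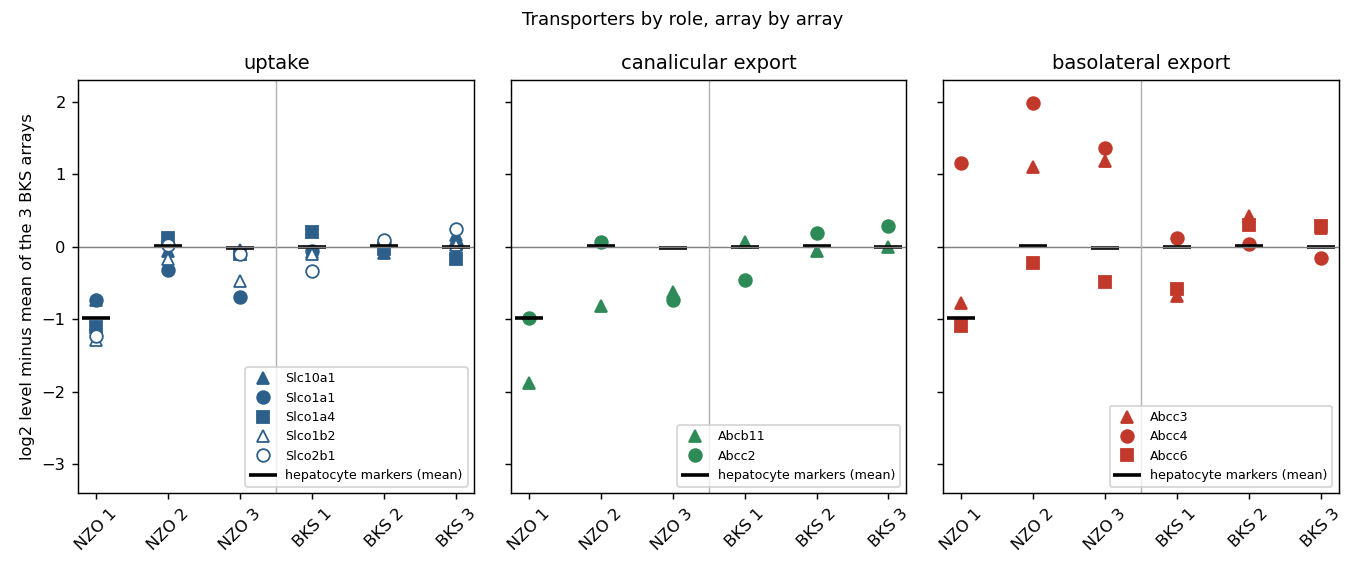
Level of each transporter on each array minus its mean over the 3 BKS arrays (log2 units), for uptake, canalicular export and basolateral export, with NZO arrays left of BKS arrays. Symbols are genes and the black bar is the mean of 8 hepatocyte markers, treated alike. On NZO replicate 1 the marker bar lies about 1 below the other arrays together with all uptake genes and both canalicular pumps, while Abcc4 lies above 1 on all 3 NZO arrays.

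The related families held no gene past the test. Of 15 other Slco and Slc10 genes and 6 other Abcc genes none passed over the 6 arrays or with the block, and their medians were -0.09 and -0.03. In them, Slc10a3, a relative of Slc10a1 without a known bile acid transport role, was at -0.49 (adjusted p = 0.307) and the prostaglandin carrier Slco2a1 at -0.77 (adjusted p = 0.459). The Abcc genes with the smallest p were the potassium channel regulators Abcc9 (-0.29, adjusted p = 0.816) and Abcc8 (-0.16, adjusted p = 0.794).

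Of 17 other liver transporters none passed over the 6 arrays, and with the block Atp8b1 and the sterol transporter Abcg8 were lower. Over the 2 against 2 arrays Ephx1, an epoxide hydrolase (0.91, adjusted p = 0.0198), and Slc22a30, of the organic anion transporter family (0.82, adjusted p = 0.0295), were higher and Atp8b1 was lower. Atp8b1 (FIC1), the flippase that protects the canalicular membrane and is mutated in a familial cholestasis, had 7.86, 8.53 and 7.53 in NZO and 9.02, 9.91 and 9.55 in BKS. All NZO arrays lay below all BKS arrays. Atp8b1 was at -1.52 on the log2 scale (SE 0.32, adjusted p = 0.105), and it passed with the block (adjusted p = 0.0142) and over the 2 against 2 arrays (-1.69 with an adjusted p of 0.0250). The drug pump Abcb1b was at 1.16 (adjusted p = 0.367), the phospholipid pump Abcb4 (MDR2) at -0.07 (adjusted p = 0.962), and the basolateral bile acid exporter subunit Slc51b at -0.16 (adjusted p = 0.804).

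Of 21 genes of bile acid synthesis and conjugation none passed over the 6 arrays, 15 were below 0 and the median was -0.20. With the block Cyp46a1 was higher and Cyp2c70 and the peroxisomal side-chain oxidase Acox2 were lower. Cyp7a1, the rate-limiting enzyme of the classical pathway, had 10.72, 11.35 and 11.44 in NZO and 10.87, 9.25 and 10.47 in BKS. The strains overlap through the number 1 arrays, and BKS replicate 2 was the lowest. Cyp7a1 was at 0.98 (adjusted p = 0.441) over the 6 arrays, and it passed over the 2 against 2 arrays (1.54, adjusted p = 0.0496). The number 1 arrays gave -0.14, and dropping BKS replicate 2 gave 0.50 (adjusted p = 0.971). Cyp8b1, which sets the share of cholic acid, was at 0.05 (adjusted p = 0.969). Cyp2c70, which makes muricholic acids in mice, had a value of -0.90 (adjusted p = 0.146), and the cholesterol hydroxylase Cyp46a1, best known from brain, had 0.66 (adjusted p = 0.131). Both passed with the block (adjusted p = 0.0170 and 0.0327).

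Among 24 measured regulators Foxa1 fell and 23 did not pass. With the block Nfe2l2 was higher, and Foxa1 and its relative Foxa2 were lower. Foxa1, a forkhead factor that opens liver gene chromatin, had 8.52, 8.03 and 8.13 in NZO and 10.07, 10.77 and 9.93 in BKS. All NZO arrays lay more than 1 below all BKS arrays, and NZO replicate 1 was the highest of its strain, unlike the transporters. NZO minus BKS was -2.03 on the log2 scale (adjusted p = 0.0206), and it passed without NZO replicate 1 (-2.18, adjusted p = 0.0125) but not without any 1 of the other 5 arrays (adjusted p = 0.0519 to 0.133). Relative to the hepatocyte markers, where the median of all genes was 0.30, Foxa1 was at -1.69 and narrowly missed the threshold (adjusted p = 0.0502). Nfe2l2 (Nrf2), another of these regulators, had 9.68, 10.77 and 10.17 in NZO and 9.22, 9.10 and 9.06 in BKS. The strains did not overlap. Nfe2l2 was at 1.08 (adjusted p = 0.175) over the 6 arrays, and the block gave an adjusted p of 0.0318. It also passed over the 2 against 2 arrays (1.39, adjusted p = 0.0141) and without NZO replicate 1 (1.34, adjusted p = 0.0314). Relative to the hepatocyte markers, after repeated quantile normalization and after cyclic loess the adjusted p was 0.0266, 0.0162 and 0.0121. With 1 array left out the adjusted p ran from 0.0314 to 0.622, and the number 1 arrays differed by 0.46.

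The receptors that act on these transporters did not pass over the 6 arrays. The bile acid receptor Nr1h4 (FXR) was at 0.39 (adjusted p = 0.575) and its target, the repressor Nr0b2 (SHP), at -0.53 (adjusted p = 0.475). The xenobiotic receptors Nr1i2 (PXR) and Nr1i3 (CAR) were at 0.72 (adjusted p = 0.446) and -0.26 (adjusted p = 0.779). Nr1i2 passed over the 2 against 2 arrays (0.95, adjusted p = 0.0235) and narrowly without NZO replicate 1 (1.07, adjusted p = 0.04985). Of 12 membrane scaffold and trafficking genes none passed over the 6 arrays, 8 were below 0, and with the block Slc9a3r1 and the membrane linker Rdx (radixin) were lower. The scaffold Slc9a3r1 (NHERF1), which anchors apical membrane proteins, had a value of -0.97 (adjusted p = 0.208), and the block gave an adjusted p of 0.0119. Slc9a3r1 also passed over the 2 against 2 arrays (-0.81, adjusted p = 0.0324), but not without NZO replicate 1 (-0.68, adjusted p = 0.166). Vipas39, needed for apical trafficking in hepatocytes, was at -0.53 (adjusted p = 0.192).

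**Figure D4:**
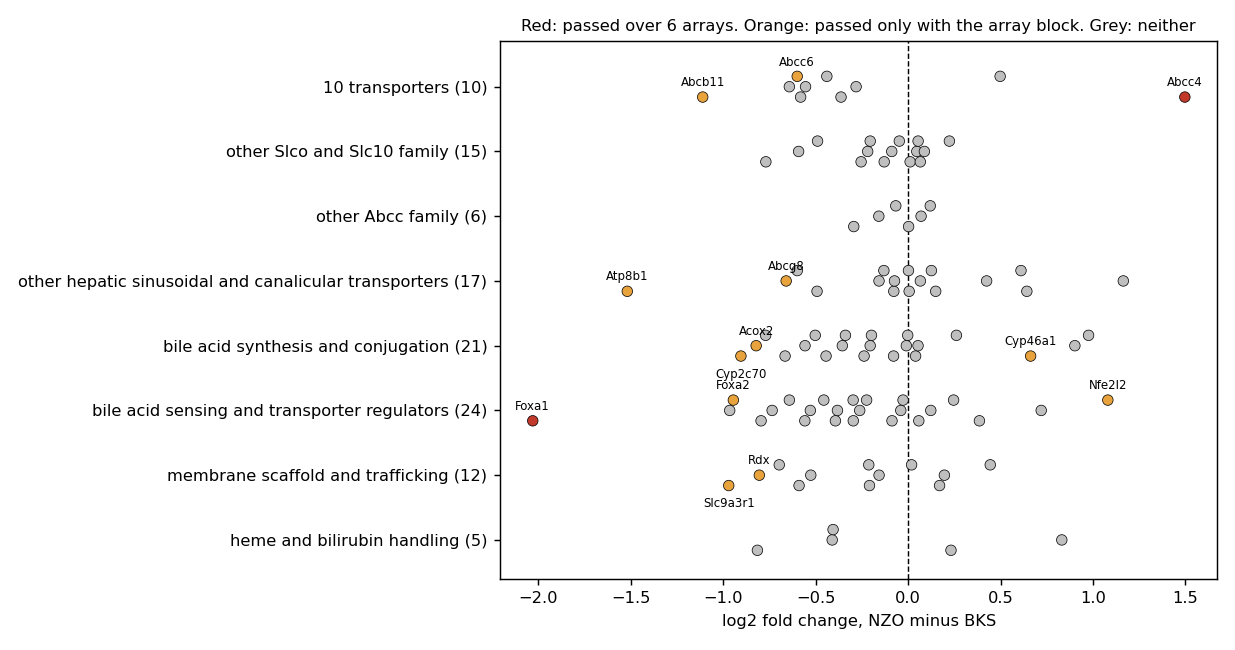
Log2 fold change (NZO minus BKS) of the 10 transporters and of 7 related gene lists, 1 point per gene, with the number of measured genes in brackets. Red genes passed over the 6 arrays. Orange genes did not, but passed with the array block, and grey genes passed in neither fit. Other settings are not shown in the colours. All red and orange genes are named. Abcc4 (1.50) and Foxa1 (-2.03) are the red points.

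Abcc4 had the smallest p of the 10 transporters, and the genes most like it over the 6 arrays were taken among 9622 other genes with a mean of at least 6. They were Fam126a (Pearson r = 0.996), Ankrd13a (0.996), the lectin Lgals1 (0.994), the nuclease Dnase1 (0.991) and the guanylate-binding protein Gbp7 (0.988). The same 6 arrays gave Abcc4 its strain difference, so these likenesses are a description, and 57 genes reached an r of at least 0.95.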

How the data were processed

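Liver RNA of NZO and BKS mice was hybridised to a 3' expression array, 3 arrays per strain. The authors deposited log2 levels per probe set. The submitters' processing notes name RMA and the Affymetrix Expression Console as their source. Versions, and whether other arrays were normalized with these 6, are not given in the sources used here. Values carry no detection call, and the number of arrays limits the precision. Replicates are numbered in accession order and pair nothing. No label states outright that every array is its own mouse, and if some are not, the p-values reflect technical spread as well.

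Of 45101 probe sets, 64 controls were left out and 34945 had exactly 1 symbol, updated through GRCm38.p6 gene IDs. Each gene took its probe set with the highest mean. NZO was compared with BKS in limma 3.58.1 (R 4.3.3, lmFit and eBayes, no covariate, two-sided), with Benjamini-Hochberg adjustment over all 18193 genes and a threshold of 0.05. Each probe set was also tested in a fit over 45037. The gene fit was tested on simulated data with known changes. It recovered 34% of log2 changes of 1 and 97% of log2 changes of 2, so a change of about 1 can be missed. Noise was drawn separately for each gene and array, without a shift like that of NZO replicate 1. Named genes are all members and up to 4 members past the test per list (otherwise the 2 smallest p). Also named are 9 fixed regulators, enzymes and transporters, and the 5 genes most like the member with the smallest p. Members, lists, tests and other settings were chosen with earlier results of these data known, and scaling to hepatocyte markers, and the naming of Abcg8, Acox2, Foxa2, Rdx, Ephx1 and Slc22a30, were added after seeing the values. Figures used matplotlib 3.10.9.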

Additional observations from a re-analysis of the deposited data

How the results depend on the processing

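No paired analysis was possible because only the number 1 occurs in the titles of both strains; the arrays titled number 1 were used as a block instead. Of the 10 transporters, 1 was higher over the 6 arrays. This count was 2 among the 2 against 2 arrays, 0 among genes with a mean of at least 6 (where Abcc4 is not tested), 0 in the fit over all probe sets, and 0 to 1 with 1 array left out. The number lower was 0, and it was 2 with the block, 1 after repeated quantile normalization and 1 with array weights. The median log2 fold change of the uptake genes was -0.44, and -0.89 between the number 1 arrays. Without NZO replicate 1 it was -0.05. The basolateral median was 0.50, and it was 1.14 without NZO replicate 1, 0.16 to 0.20 without NZO replicate 2, NZO replicate 3 or BKS replicate 1, -0.11 between the number 1 arrays, and -0.05 among genes with a mean of at least 6, so its direction depended on these choices. The canalicular median was -0.83 and stayed below 0 in every setting run. Abcc4 and Foxa1, called over the 6 arrays, kept their direction in every setting run that tested them. Abcc3 and Cyp7a1, called only over the 2 against 2 arrays, were below 0 between the number 1 arrays. The count of all genes called was 59 higher and 76 lower, against 275 and 917 with the block, 363 and 549 among 2 against 2 arrays, 399 and 899 with array weights, 192 and 229 after repeated quantile normalization, 208 and 221 after cyclic loess, 121 and 160 with a trended robust variance, and 139 and 58 relative to hepatocyte markers. With 1 array left out it ran from 10 to 150 higher and from 14 to 108 lower. Levels near the bottom of the scale, Abcc4 in BKS among them, limit the size of folds.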

Other observations

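Among 5 measured genes of heme and bilirubin handling none passed the test over the 6 arrays or with the block. The heme oxygenase Hmox1 had 7.08, 8.31 and 7.65 in NZO and 7.01, 6.67 and 6.87 in BKS, all NZO arrays above all BKS arrays (log2 fold change 0.83, adjusted p = 0.354, and 1.21 with adjusted p = 0.0290 among the 2 against 2 arrays). The glutathione transferase Gstm1 had 11.49, 12.60 and 12.69 in NZO and 13.03, 13.03 and 13.17 in BKS, all NZO arrays below all BKS arrays (-0.81, adjusted p = 0.388).

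NZO replicate 1 also had high levels of 2 marker genes of other cell types, named here after their values were seen. Both probe sets end in _x_at, the array's mark for probes shared between transcripts. The T cell marker Cd8a was at 9.55 there, against 6.41 and 6.70 in the other NZO arrays and 6.61 to 6.70 in BKS. The epithelial marker Epcam was at 9.78 there, against 7.07 and 7.29 in the other NZO arrays and 7.07 to 7.73 in BKS. Cd3e and Krt19 on that array were at 7.19 and 5.88, against 6.33 to 6.68 and 5.86 to 6.63 on the other 5. The part of this array's cell make-up in the transporter values was not tested; without the array Abcc4 still passed and no other transporter did.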
